A study of Mus musculus with 24 samples.

Results

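The transcription factors that specify and maintain skeletal muscle were examined in mice in which the reprogramming factors Oct4, Sox2, Klf4 and Myc (the 4F cassette) were induced in myofibers. The set holds 9 genes, namely the paired box factors Pax7 and Pax3, the basic helix-loop-helix myogenic regulatory factors (MRFs) Myod1, Myog, Myf5 and Myf6, and the MADS box factors Mef2a, Mef2c and Mef2d. They were taken by gene symbol from the count table, where all 9 were found among 24537 genes, and all 9 passed the filter on low counts. Whole extensor digitorum longus (EDL), a fast muscle, and soleus (SOL), a slow muscle, of 2-month-old mice were profiled by polyadenylated mRNA sequencing after 2.5, 5.5 and 8.5 days of doxycycline in the drinking water. Cre+ mice (Acta1-Cre+/4Fhet) carry a Cre recombinase under the promoter of the myofiber actin gene Acta1, which removes a stop cassette in front of the doxycycline-dependent transactivator rtTA in myofibers. Cre- controls (Acta1-Cre-/4Fhet) carry the same heterozygous 4F cassette and received the same doxycycline, without Cre. There were 2 libraries for each muscle, genotype and day, which made 24 libraries in 12 groups. The submitters set the 5.5-day libraries aside as outliers, so those libraries were fitted only for the comparisons of that day.

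Pax7 and Pax3 act upstream of the MRFs. Pax7 marks the satellite cells, the resident stem cells of muscle, and Pax3 is the related factor of the embryonic muscle progenitors that persists in satellite cells of some muscles. Myf5 and Myod1 commit cells to the myogenic lineage, Myog drives their terminal differentiation, and Myf6 (MRF4) is the MRF that predominates in mature fibers. MRFs pair with E proteins and bind E-boxes, and the MEF2 factors bind an A/T-rich element and act together with the MRFs on muscle genes. Whole muscle mixes myofiber nuclei with satellite cells and other cells, so fewer cells of a type and less RNA per cell cannot be told apart in these libraries.

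In mm10 the count table placed Pax7 at chr4:139738081-139832968 (minus strand), Pax3 at chr1:78101267-78197136 (minus), Mef2a at chr7:67231163-67372858 (minus), Mef2c at chr13:83504034-83667079 (plus) and Mef2d at chr3:88142372-88172091 (plus). Among the MRF genes, Myod1 lay at chr7:46376474-46379092 (plus) and Myog at chr1:134290004-134292548 (plus), while Myf5 at chr10:107482908-107486134 and Myf6 at chr10:107492860-107494729 (both minus) were neighbours. Where the reference held it, the sequence just upstream of each start was read to show which members carry the elements that members of the set bind. The RefSeq promoter table (GRCm38.p6) held windows for 6 of the 9 genes, with 3 windows for Mef2c. The 250 bases before the start are printed for Myog and the first Mef2c window, which carry both elements, and for Mef2d, which carries neither and is the member that changed most clearly below. They are chr1:134289754-134290003 (plus strand) for Myog, chr13:83503784-83504033 (plus strand) for Mef2c and chr3:88142122-88142371 (plus strand) for Mef2d. Capitals mark E-boxes (CANNTG, a palindromic pattern that reads alike on both strands) and matches to the MEF2 element (C or T, then TA, 4 bases that are A or T, then TA, searched on both strands).
Myog: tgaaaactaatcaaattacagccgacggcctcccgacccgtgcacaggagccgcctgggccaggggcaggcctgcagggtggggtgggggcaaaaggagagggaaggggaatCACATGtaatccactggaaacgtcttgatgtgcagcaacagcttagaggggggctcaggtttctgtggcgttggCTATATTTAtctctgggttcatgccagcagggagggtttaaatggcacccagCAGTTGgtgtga
Mef2c: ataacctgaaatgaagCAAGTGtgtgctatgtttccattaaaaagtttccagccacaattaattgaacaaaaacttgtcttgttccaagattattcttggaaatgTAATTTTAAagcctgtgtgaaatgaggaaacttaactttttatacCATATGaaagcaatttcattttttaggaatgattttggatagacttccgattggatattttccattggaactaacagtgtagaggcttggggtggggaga
Mef2d: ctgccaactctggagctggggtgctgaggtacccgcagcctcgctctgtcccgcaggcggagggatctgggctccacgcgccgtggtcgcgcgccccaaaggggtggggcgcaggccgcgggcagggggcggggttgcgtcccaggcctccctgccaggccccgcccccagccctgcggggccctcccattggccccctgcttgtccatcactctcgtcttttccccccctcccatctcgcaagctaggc
In the Myog window the E-boxes CACATG and CAGTTG began 138 and 12 bases before the start, and the MEF2 element CTATATTTA began 64 bases before it. The Mef2c window held the E-boxes CAAGTG and CATATG at 234 and 100 bases and the MEF2 match TAATTTTAA at 145 bases before the start. Neither element was found in the windows of Mef2d, Mef2a, Myf5 and Pax7. Over 32851 windows of the same length, 66.2% held an E-box, 7.07% held a MEF2 match and 4.87% held both.

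The libraries held 36088781 to 54679082 counted reads. Levels below are FPKM (reads relative to exon length and to all counted reads of the library), and fold changes come from edgeR's quasi-likelihood fit with TMM scaling and Benjamini-Hochberg adjustment over all genes tested. A gene was called when its adjusted p was below 0.05 and its log2 fold change was beyond 0.5 in size. Pou5f1 (Oct4) checked the genotype labels. It stood at 17.5 and 70.5 FPKM in the Cre+ EDL libraries of 2.5 days and at 76.2 and 57.7 FPKM in those of 8.5 days, against at most 0.0896 FPKM in any Cre- EDL library. In Cre+ SOL it reached 5.02, 9.62, 12.2 and 6.19 FPKM on those days. At 5.5 days Pou5f1 was 1.02 and 27.7 FPKM in Cre+ EDL and 0.0785 and 0.387 FPKM in Cre+ SOL. Sox2 (7.17 to 30.7 FPKM), Myc (25.4 to 99.4 FPKM) and Klf4 (24.4 to 61.9 FPKM) were also higher in the Cre+ EDL libraries of 2.5 and 8.5 days than in the Cre- ones, which held at most 0.0563, 3.34 and 17.0 FPKM. Acta1 itself stood at 9527 to 13897 FPKM in these Cre+ libraries and at 18464 to 21105 FPKM in the Cre- ones. The muscle labels held as well, with the fast myosin Myh4 between 2695 and 7905 FPKM in EDL and at most 521 FPKM in SOL, and the slow myosin Myh7 at most 88.6 FPKM in EDL and at least 1848 FPKM in SOL. TMM factors of the 2.5- and 8.5-day EDL libraries ran from 0.921 to 0.980 in Cre- and from 1.07 to 1.21 in Cre+, so a ratio of FPKM values in EDL exceeds the fitted fold. Without TMM, the median log2 change of all genes in EDL moved from -0.05 to 0.28 at 2.5 days and from -0.02 to 0.16 at 8.5 days.

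Mef2c, Mef2d and Myf6 were the most abundant members, and the Pax genes were the least. In the 6 Cre- EDL libraries the levels were 83.2 ± 24.4 (SD, n = 6) FPKM for Mef2c, 62.1 ± 11.6 for Myf6, 55.4 ± 2.92 for Mef2d, 24.6 ± 4.96 for Myod1, 20.7 ± 3.87 for Mef2a, 4.32 ± 0.714 for Myog, 0.983 ± 0.317 for Myf5, 0.870 ± 0.243 for Pax7 and 0.196 ± 0.0484 for Pax3. Neighbours in this order overlapped for Mef2c and Myf6, for Myf6 and Mef2d, for Myod1 and Mef2a, and for Myf5 and Pax7. In Cre- SOL, Mef2c (83.8 ± 6.84 FPKM, n = 6), Mef2d (69.3 ± 3.86 FPKM) and Myf6 (53.6 ± 5.07 FPKM) again led. They were followed by Mef2a at 14.7 ± 1.57 FPKM, Myog at 8.95 ± 2.41 FPKM, Myod1 at 8.91 ± 2.94 FPKM, Myf5 at 1.97 ± 0.813 FPKM and Pax7 at 1.57 ± 0.470 FPKM, and in this order Mef2a and Myog, Myog and Myod1, and Myf5 and Pax7 overlapped. Of the summed MRF level, Myf6 made up 67.2% ± 4.17 (SD, n = 6) in Cre- EDL and 73.0% ± 5.89 in Cre- SOL. Myod1 took 26.8% ± 4.33 in Cre- EDL and 12.1% ± 3.81 in Cre- SOL, and Myog took 4.80% ± 1.16 and 12.2% ± 3.08.

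**Figure D1:**
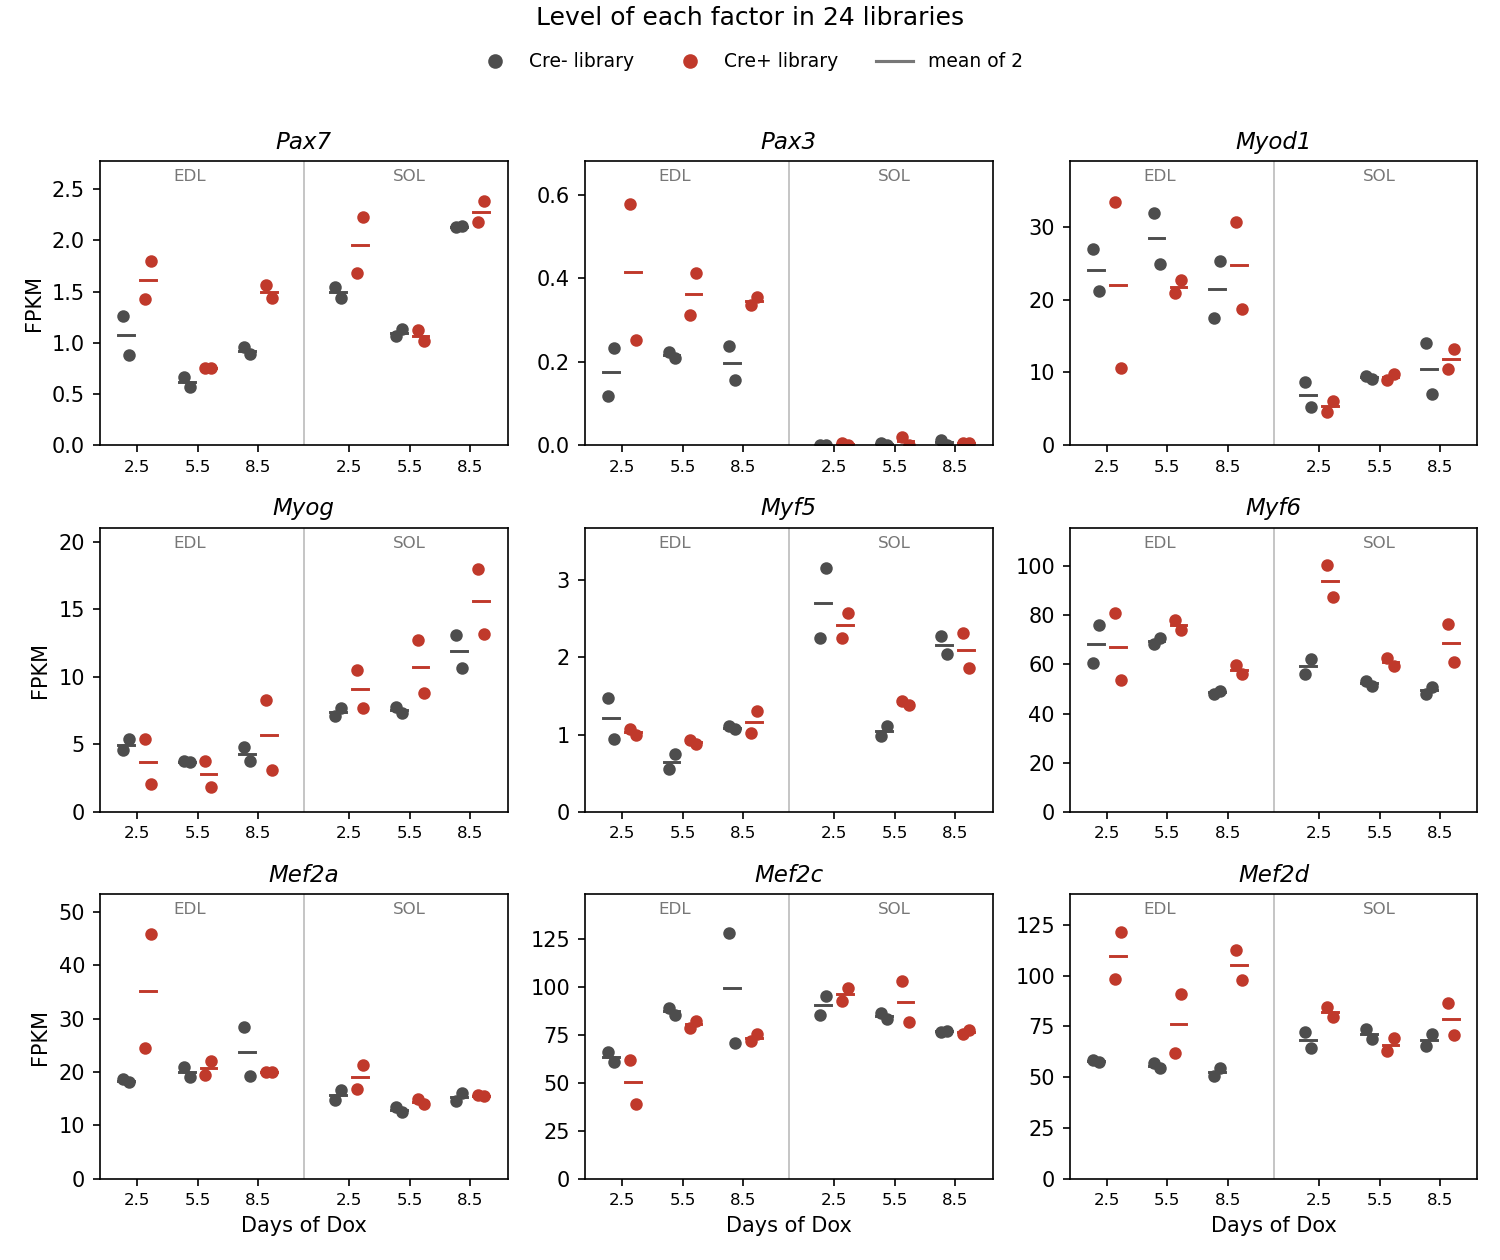
Level of each of the 9 members in every library (FPKM, linear axes from 0, a panel for each member), by muscle, genotype and day, with 1 point per library. Mef2c, Mef2d and Myf6 are the top 3 in 23 of the 24 libraries, the other being the second Cre+ EDL library of 2.5 days, where Mef2a (46.0 FPKM) lies above Mef2c (38.7 FPKM), and Pax3 lies below 0.6 FPKM everywhere and at or near 0 in SOL.

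Mef2d, a broadly expressed MEF2 factor, was the only member that passed the test between Cre+ and Cre- muscles, and it rose in Cre+ EDL on both days. At 2.5 days it stood at 58.7 and 57.5 FPKM in the Cre- EDL libraries and at 98.3 and 122 FPKM in the Cre+ libraries. At 8.5 days it stood at 50.6 and 54.4 FPKM in Cre- and at 112 and 98.1 FPKM in Cre+. On each day both Cre+ libraries thus lay above both Cre- libraries. On the FPKM scale the same held for 52.1% of all genes tested at 2.5 days and for 40.3% at 8.5 days. The fitted change was 0.59 on the log2 scale (SE 0.131, adjusted p = 0.00552), or 1.5-fold, at 2.5 days and 0.82 (SE 0.132, adjusted p = 0.00156), or 1.77-fold, at 8.5 days. It was 1 of 9 members called at 2.5 days, where 24% of all 15372 genes tested were called, and 1 of 9 at 8.5 days, where 14.1% were. At an unadjusted p under 0.05, 4 and 3 members passed, against 39% and 29.8% of all genes. Genes called higher on both days made up 6.14% of those tested. At 2.5 days the call rested on the second Cre+ library, which held the higher Pou5f1 level, since without it the change was 0.48 with an adjusted p of 0.0588. At 8.5 days Mef2d was called whichever EDL library was left out, with changes between 0.75 and 0.89. The 6 Cre+ EDL libraries paired Pou5f1 levels of 1.02, 17.5, 27.7, 57.7, 70.5 and 76.2 FPKM with Mef2d levels of 61.9, 98.3, 90.9, 98.1, 122 and 112 FPKM in that order. An antisense gene, 1700113A16Rik, overlaps Mef2d exons on the other strand. It held 0.763 to 0.924 FPKM in Cre- EDL and 0.327 to 0.677 FPKM in Cre+ EDL, and its part in the Mef2d values was not tested.

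Mef2c and Mef2a, the other MEF2 members, did not pass the test in EDL. DESeq2 on the 16 libraries called both at 2.5 days (Mef2c -0.63, adjusted p = 0.0401, and Mef2a 0.61, adjusted p = 0.0366), whereas DESeq2 on the 4 libraries of that comparison called 1 member, Mef2d. No share of all genes called by DESeq2 stands beside these calls. Mef2c, the MEF2 factor of muscle development and fiber type, was 65.8 and 60.8 FPKM in Cre- EDL and 61.9 and 38.7 FPKM in Cre+ EDL at 2.5 days, with a log2 change of -0.65 (SE 0.253, adjusted p = 0.0741). At 8.5 days it was 128 and 70.6 FPKM in Cre- and 71.6 and 75.2 FPKM in Cre+, with a change of -0.61 (SE 0.252, adjusted p = 0.127). In FPKM the groups overlapped on both days. On TMM-scaled levels they did not, with 68.7 and 66.0 in Cre- against 54.1 and 32.1 in Cre+ at 2.5 days and 130 and 74.1 against 62.4 and 70.0 at 8.5 days. On that scale both Cre+ libraries lay below both Cre- libraries for 34.2% of all genes at 2.5 days and 28.7% at 8.5 days, and above them for 30.9% and 25%. The 8.5-day value rested on the first Cre- library. Without that library the change was -0.14, and without the second Cre- library it was -0.96 with an adjusted p of 0.0163. That first Cre- EDL library of 8.5 days also held the highest Myh7 level of any EDL library, 88.6 FPKM, and its part in the Mef2c value was not tested. Mef2a was 18.7 and 18.2 FPKM in Cre- and 24.5 and 46.0 FPKM in Cre+ EDL at 2.5 days (log2 change 0.59, SE 0.227, adjusted p = 0.0701). At 8.5 days it was 28.4 and 19.2 FPKM in Cre- and 20.04 and 20.07 FPKM in Cre+ (-0.42, SE 0.226, adjusted p = 0.236). Lysmd4, which overlaps Mef2a exons on the other strand, stood between 5.48 and 7.59 FPKM over all libraries.

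Within the MEF2 family the shares of Mef2c and Mef2d in EDL differed between the genotypes, as a description with no test. Mef2c made up 51.3% ± 6.31 (SD, n = 6) of the summed MEF2 level in Cre- EDL and 36.2% ± 10.2 in Cre+ EDL, while Mef2d made up 35.6% ± 6.37 and 50.5% ± 7.11. Mef2a held 13.2% ± 4.61 in Cre+ EDL, and Mef2b, which is no member and had 4 to 36 reads a library, held 0.148% in Cre- EDL and 0.112% in Cre+ EDL. In SOL the shares of Mef2c were 49.8% in Cre- and 48.8% in Cre+, and those of Mef2d were 41.3% and 42.0%. At 2.5 and 8.5 days the ratio of Mef2d to Mef2c lay between 0.396 and 0.945 in the 4 Cre- EDL libraries. In the 4 Cre+ EDL libraries of these days it lay between 1.30 and 3.14, with no overlap. Mef2d, the member called in EDL, is part of this ratio. No share over other ratios was computed, so this lack of overlap has no background beside it. With the 5.5-day libraries included, the Cre+ EDL range was 0.788 to 3.14 and overlapped that of Cre-. In all 12 SOL libraries the ratio stayed between 0.612 and 1.15. The ratios were not tested.

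**Figure D2:**
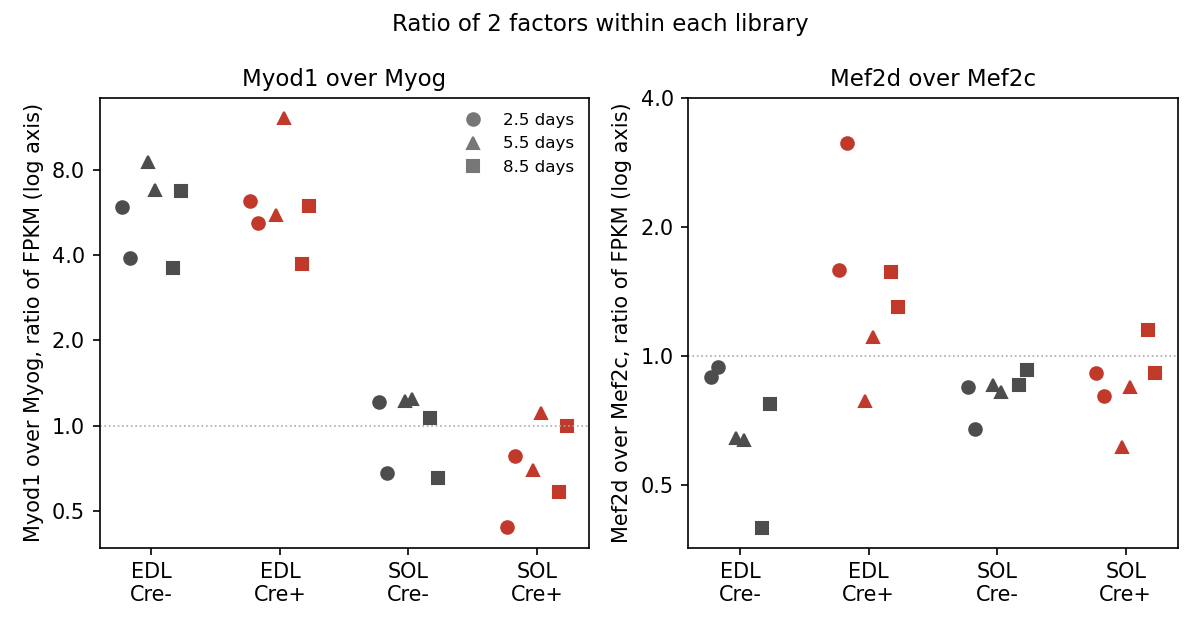
Ratio of FPKM levels in each library, on log axes, for Mef2d over Mef2c and for Myod1 over Myog, by muscle, genotype and day. The 4 Cre+ EDL libraries of 2.5 and 8.5 days lie at 1.30 to 3.14 for Mef2d over Mef2c, above the Cre- EDL libraries at 0.396 to 0.945. With the 5.5-day libraries the Cre+ EDL range starts at 0.788 and overlaps that of Cre-. Myod1 over Myog is 3.61 to 12.1 in EDL and 0.439 to 1.25 in SOL.

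None of the 4 MRFs passed the test between Cre+ and Cre- EDL on either day. Myod1 stood at 26.9 and 21.2 FPKM in Cre- and at 33.4 and 10.6 FPKM in Cre+ EDL at 2.5 days, so the Cre+ libraries fell on either side of the Cre- ones. Its log2 change was -0.43 (SE 0.481, adjusted p = 0.541) at 2.5 days and 0.01 (adjusted p = 0.992) at 8.5 days, where the levels were 17.4 and 25.3 FPKM in Cre- and 30.7 and 18.7 FPKM in Cre+. Myog was 4.56 and 5.39 FPKM in Cre- against 5.37 and 2.05 FPKM in Cre+ at 2.5 days (-0.73, SE 0.435, adjusted p = 0.232). In FPKM the groups overlapped on that day. On TMM-scaled levels Cre+ (4.69 and 1.70) lay below Cre- (4.76 and 5.86), as it did for 34.2% of all genes. At 8.5 days Myog was 4.83 and 3.75 FPKM in Cre- and 8.27 and 3.13 FPKM in Cre+ (0.22, SE 0.432, adjusted p = 0.795). Myf6, the main MRF of the adult fiber, was 60.4 and 75.8 FPKM in Cre- and 80.9 and 53.5 FPKM in Cre+ EDL at 2.5 days (-0.34, SE 0.191, adjusted p = 0.204). At 8.5 days its levels were 48.1 and 49.3 FPKM in Cre- and 59.6 and 56.2 FPKM in Cre+, with a change of 0.07 (adjusted p = 0.857). Myf5, the earliest MRF, ranged from 0.949 to 1.47 FPKM in these 8 EDL libraries, with changes of -0.55 (adjusted p = 0.125) and -0.07 (adjusted p = 0.888).

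In the Cre+ EDL pair of 2.5 days the MRFs diverged between the libraries. The second library had the lower Myod1 (10.6 against 33.4 FPKM), Myog (2.05 against 5.37 FPKM) and Myf6 (53.5 against 80.9 FPKM). It had the higher Mef2a (46.0 against 24.5 FPKM) and the higher Pou5f1 (70.5 against 17.5 FPKM). Its Myh4 was the lowest of any EDL library (2695 against 6804 FPKM in the first), and its Myh7 was the higher (41.9 against 6.52 FPKM). The part of these differences in the MRF values was not tested. With this library as the only Cre+ EDL library of 2.5 days, and its variation assumed to be that of the other groups, 6 members were called, with Myod1 at -1.55, Myog at -1.66, Myf6 at -0.73 and Mef2c at -1.09 lower and Mef2a at 0.94 and Mef2d higher. With the first library alone none was called. Of all genes, 27.1% were called in the fit with the second library alone and 12.7% in the fit with the first. The counts thus ran from 0 to 6 when 1 of the 4 EDL libraries was left out, and the part of the Pou5f1 level in this was not tested.

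The Pax genes did not pass the test in EDL either. Pax7 stood at 1.26 and 0.879 FPKM in Cre- and at 1.43 and 1.80 FPKM in Cre+ EDL at 2.5 days (0.26, SE 0.193, adjusted p = 0.346), and at 0.955 and 0.888 against 1.56 and 1.43 FPKM at 8.5 days (0.52, SE 0.196, adjusted p = 0.0924). In FPKM both Cre+ libraries lay above both Cre- libraries on each day, as they did for 52.1% and 40.3% of all genes. On TMM-scaled levels the groups overlapped at 2.5 days (1.32 and 0.954 in Cre- against 1.25 and 1.49 in Cre+) and did not at 8.5 days (0.9747 and 0.9325 against 1.36 and 1.33). On that scale both Cre+ libraries lay above both Cre- libraries for 25% of all genes at 8.5 days. Pax3 was covered by 20 to 107 reads in the EDL libraries, with 0.117 and 0.233 FPKM in Cre- and 0.580 and 0.251 FPKM in Cre+ at 2.5 days. At 8.5 days it was 0.237 and 0.156 FPKM in Cre- and 0.337 and 0.355 FPKM in Cre+. Its log2 changes were 0.92 (SE 0.539, adjusted p = 0.227) and 0.64 (SE 0.542, adjusted p = 0.479). Of 12 other satellite cell markers, 2 rose and 5 fell in Cre+ EDL at 2.5 days, and 1 rose at 8.5 days. Of all genes 13.8% were called higher and 10.2% lower in EDL at 2.5 days, and 7.63% and 6.5% at 8.5 days. These shares are the background for each list in EDL with TMM scaling. With library size alone 27.4% were called higher and 3.97% lower at 2.5 days, and 12.7% and 3.53% at 8.5 days. Those shares are the background for list counts under that scaling. When a single library was left out, the share of all genes called moved as well. The list counts without a single library thus show only how far a count moved, and not that a list moved apart from other genes. The summed level of the satellite cell markers was 54.9 to 59.8 FPKM in Cre- and 77.2 to 77.7 FPKM in Cre+ at 2.5 days, led by the syndecan Sdc4, which rose by 1.29 (adjusted p = 0.00576) and 1.07 (adjusted p = 0.0246). Cxcr4 fell by 1.07 (adjusted p = 0.00437) and Fgfr4 fell by 0.90 (adjusted p = 0.00494) at 2.5 days, and their values at 8.5 days were -0.12 and 0.27 and not called. With library size alone 2 rose and 2 fell at 2.5 days, and at 8.5 days none was called without either Cre+ EDL library or without the first Cre- one. At 2.5 days 1 of these markers fell without the second Cre+ EDL library and 2 fell without the second Cre- library.

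In SOL no member was called by edgeR or by DESeq2, at 2.5 days, where 0.384% of all genes were called, or at 8.5 days, where 0.631% were. At an unadjusted p under 0.05, 1 member passed on each day, against 13.4% and 6.6% of all genes. It was Myf6 on both. Myf6 stood at 56.1 and 62.4 FPKM in Cre- and at 101 and 87.3 FPKM in Cre+ SOL at 2.5 days, and at 48.0 and 50.8 against 76.4 and 61.1 FPKM at 8.5 days, so Cre+ lay above Cre- on both days, as it did for 43.8% and 21.3% of all genes. Its log2 changes were 0.51 (SE 0.192, adjusted p = 0.265) and 0.44 (SE 0.192, adjusted p = 0.703). Mef2d, called in EDL, was 72.2 and 64.2 FPKM in Cre- and 84.8 and 79.9 FPKM in Cre+ SOL at 2.5 days, and 65.5 and 71.5 against 86.6 and 70.9 FPKM at 8.5 days (0.12, adjusted p = 0.755, and 0.16, adjusted p = 0.958). Myog in SOL was 7.14 and 7.73 FPKM in Cre- and 10.5 and 7.70 FPKM in Cre+ at 2.5 days, and 13.1 and 10.7 against 17.99 and 13.2 FPKM at 8.5 days. Myod1 was 8.63 and 5.27 FPKM in Cre- and 4.599 and 6.02 FPKM in Cre+ SOL at 2.5 days (-0.55, adjusted p = 0.685). At 8.5 days Myod1 was 13.99 and 6.97 FPKM in Cre- and 10.5 and 13.2 FPKM in Cre+ SOL (0.13, adjusted p = 0.999). Pax7 was 1.55 and 1.44 FPKM in Cre- and 1.69 and 2.23 FPKM in Cre+ SOL at 2.5 days, and 2.13 and 2.14 against 2.18 and 2.39 FPKM at 8.5 days (0.24, adjusted p = 0.639, and 0.06, adjusted p = 0.999). Myf5 was 2.25 and 3.15 FPKM in Cre- and 2.25 and 2.58 FPKM in Cre+ SOL at 2.5 days, and 2.27 and 2.05 against 2.32 and 1.86 FPKM at 8.5 days (-0.31, adjusted p = 0.618, and -0.09, adjusted p = 0.999). Mef2c and Mef2a stayed between 75.3 and 99.2 FPKM and between 14.6 and 21.2 FPKM in these 8 libraries.

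**Figure D3:**
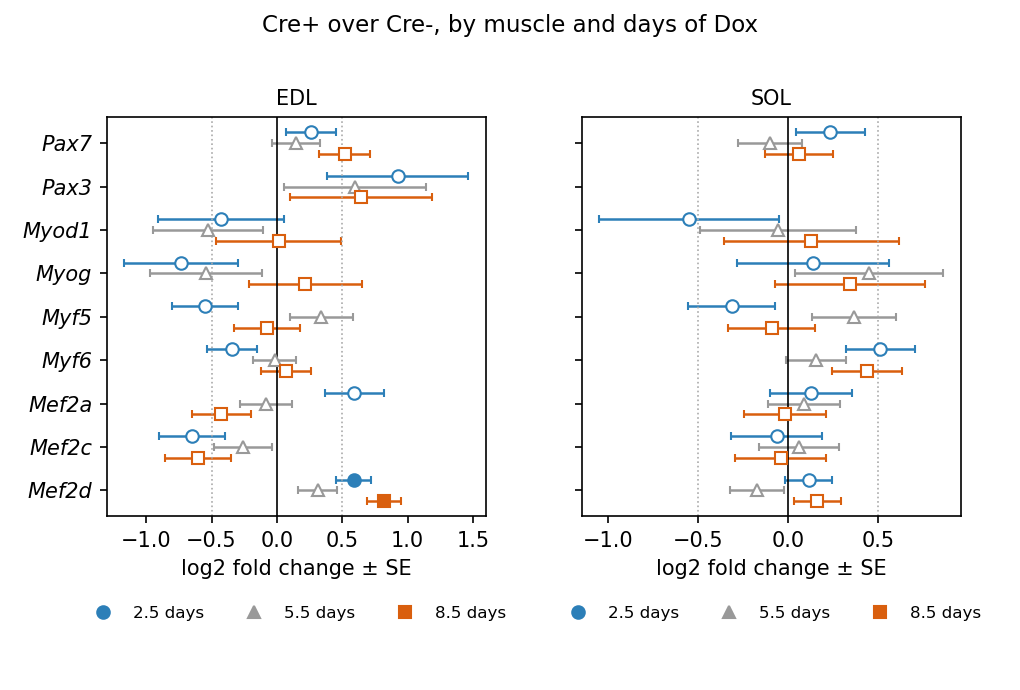
Fitted log2 fold change of Cre+ over Cre- with its standard error for each member, by muscle and at 2.5, 5.5 and 8.5 days. Filled points are calls and dotted lines mark the threshold of 0.5. Mef2d in EDL is the member called, at 0.59 after 2.5 days and 0.82 after 8.5 days. Pax3 is left out in SOL, where it had at most 3 reads a library.

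The difference between the EDL change and the SOL change was tested itself. No member was called at 2.5 days, where 4.25% of all genes were called, or at 8.5 days, where 0.592% were. At an unadjusted p under 0.05, 2 members passed at 2.5 days and 1 at 8.5 days, against 21% and 11.2% of all genes. Mef2d had differences of 0.47 (SE 0.185, adjusted p = 0.168) and 0.66 (SE 0.185, adjusted p = 0.185), so its rise was not shown to differ between the muscles by edgeR, while DESeq2 called the 8.5-day difference (0.65, adjusted p = 0.0230). Myf6 had the opposite sign at 2.5 days, with -0.86 (SE 0.271, adjusted p = 0.0922) and -0.37 at 8.5 days. Same-numbered EDL and SOL libraries were also fitted as a block. The number was assumed to mark the mouse from a hint in these same data, since the labels do not state it. With this block the 2.5-day difference of Myf6 was -0.88 with an adjusted p of 0.0357 and was called. DESeq2 without the block also called it (-0.82, adjusted p = 0.0420). Between 2.5 and 8.5 days the changes of no member were called different by edgeR or DESeq2, in EDL or in SOL. Of all genes 0% were called for either day difference by edgeR, and 9.56% of genes in EDL and 2.62% in SOL had an unadjusted p under 0.05. The nearest member was Mef2a in EDL, with -1.02 (SE 0.320, adjusted p = 0.365).

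At 5.5 days, where the cassette was weakly or unevenly expressed, no member was called in EDL or SOL by edgeR or DESeq2. Few genes of the whole table were called, with 0.304% of 15478 genes called in EDL and 0% in SOL, and 8.44% and 3.86% at an unadjusted p under 0.05, none of them a member. Mef2d was 57.0 and 54.4 FPKM in Cre- EDL and 61.9 and 90.9 FPKM in Cre+ EDL (0.31, SE 0.150, adjusted p = 0.597). The higher of the Cre+ values belonged to the library with 27.7 FPKM of Pou5f1. Myod1 stood at 31.9 and 24.9 FPKM in Cre- and 20.8 and 22.7 FPKM in Cre+ EDL, and Myog at 3.74 and 3.67 against 3.75 and 1.87 FPKM. Myf6, Mef2c and Mef2a were 68.2 to 78.0, 78.7 to 88.7 and 19.0 to 22.2 FPKM over the 4 EDL libraries of that day. The Pax genes and Myf5 were low. Pax7 was 0.669 and 0.565 FPKM in Cre- and 0.754 and 0.757 FPKM in Cre+ EDL (0.15, adjusted p = 0.907), Pax3 was 0.223 and 0.210 against 0.311 and 0.413 FPKM (0.60, adjusted p = 0.855), and Myf5 was 0.554 and 0.746 against 0.929 and 0.883 FPKM (0.34, adjusted p = 0.786). In SOL at 5.5 days Mef2c, Mef2d, Myf6 and Mef2a were 81.4 to 103, 63.0 to 73.9, 51.2 to 62.4 and 12.5 to 14.9 FPKM over the 4 libraries. Myog was 7.75 and 7.31 FPKM in Cre- and 12.7 and 8.79 FPKM in Cre+ SOL (0.45, SE 0.411, adjusted p = 1), and Myod1, Myf5 and Pax7 lay between 8.93 and 9.76, 0.981 and 1.44, and 1.02 and 1.13 FPKM.

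The fast and the slow muscle differed in several members in the absence of Cre. At 2.5 days 3 of the 9 members were called between Cre- EDL and Cre- SOL, against 16% of all genes tested, at 5.5 days 5 were, against 19.8%, and at 8.5 days 5 were, against 18.2%. Pax3 is counted on each day. It passed the filter on low counts only through its EDL libraries, where it is high, so its part in these counts is no support. Myod1 was higher in EDL, with 21.2 to 26.9 FPKM against 5.27 to 8.63 FPKM in SOL at 2.5 days (log2 difference 1.88, SE 0.502, adjusted p = 0.0203). It was also called at 5.5 days (1.72, SE 0.436, adjusted p = 0.00811), and at 8.5 days the difference was 1.10 (adjusted p = 0.134). Myog went the other way, with 3.75 and 4.83 FPKM in EDL against 13.1 and 10.7 FPKM in SOL at 8.5 days (-1.39, SE 0.435, adjusted p = 0.0386) and a difference of -0.47 (adjusted p = 0.509) at 2.5 days. At 5.5 days Myog had 3.74 and 3.67 FPKM in EDL and 7.75 and 7.31 FPKM in SOL. Its difference of -0.91 was called with the assumed mouse as a block (adjusted p = 0.0167) but not without it (adjusted p = 0.134). The ratio of Myod1 to Myog was 3.61 to 12.1 (median 5.94) in the 12 EDL libraries and 0.439 to 1.25 (median 0.892) in the 12 SOL libraries, with no overlap. This is a description over both genotypes, and no share over other ratios was computed.

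Myf5 and Pax7 were lower in EDL than in SOL. Myf5 was 1.47 and 0.949 FPKM in Cre- EDL and 2.25 and 3.15 FPKM in Cre- SOL at 2.5 days (-1.06, SE 0.247, adjusted p = 0.0100), and its difference was -0.91 (SE 0.251, adjusted p = 0.0227) at 8.5 days and -0.57 (adjusted p = 0.0961) at 5.5 days. Pax7 was 0.955 and 0.888 FPKM in Cre- EDL and 2.13 and 2.14 FPKM in Cre- SOL at 8.5 days (-1.13, SE 0.196, adjusted p = 0.00166), and its difference was -0.72 (SE 0.181, adjusted p = 0.00799) at 5.5 days and -0.38 (adjusted p = 0.208) at 2.5 days. Of the 12 other satellite cell markers, 2, 3 and 4 were lower in EDL at 2.5, 5.5 and 8.5 days and none was higher, against 7.86%, 10.2% and 9.53% of all genes called lower, and their part in these differences was not tested. Mef2a was higher in EDL by 0.73 (SE 0.202, adjusted p = 0.0138) at 5.5 days and by 0.72 (SE 0.227, adjusted p = 0.0416) at 8.5 days, and its difference at 2.5 days was 0.34 (adjusted p = 0.355). Myf6 was higher at 5.5 days (0.53, SE 0.166, adjusted p = 0.0289), with 68.2 and 70.9 FPKM in EDL against 53.2 and 51.2 FPKM in SOL. With library size alone in edgeR, neither Mef2a at 8.5 days (0.63, adjusted p = 0.0880) nor Myf6 at 5.5 days (0.41, adjusted p = 0.0727) was called. Mef2c, with differences from -0.41 to 0.45, and Mef2d, with differences from -0.30 to -0.13, were not called on any day. Leaving out 1 library changed these counts by more than 1.5 times in places. Pax3, whose call is no support, is part of the counts that follow. Pax3 alone was called at 2.5 days and at 5.5 days without the second Cre- SOL library of that day. At 5.5 days Pax3 and Pax7 were called without the first EDL or the first SOL library, and Pax3, Myod1 and Mef2a without the second EDL library. At 8.5 days Pax3 and Pax7 were the 2 members called without the first EDL or the first SOL library, and Myf5 joined them without the second SOL library.

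**Figure D4:**
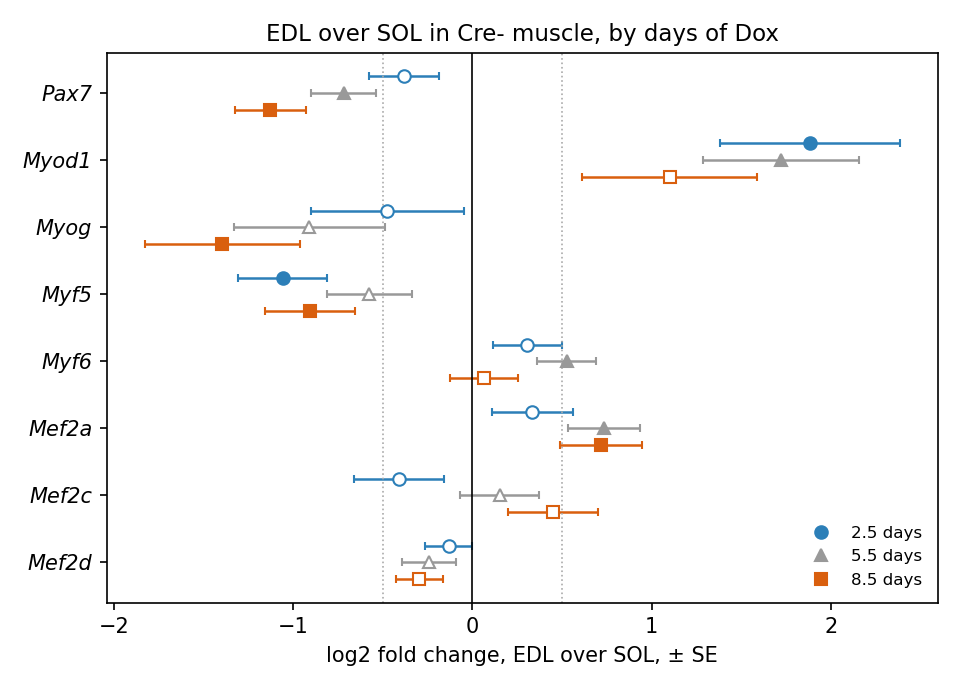
Fitted log2 difference of EDL over SOL in Cre- mice with its standard error for each member at 2.5, 5.5 and 8.5 days, with filled points for calls. Myod1 and Mef2a lie above 0 on every day and Myog, Myf5 and Pax7 below it, and Pax3 is left out because its SOL libraries had at most 3 reads each.

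Pax3 showed the clearest difference between the muscles. Over the 12 EDL libraries it had 613 reads, from 20 to 107 in each, and over the 12 SOL libraries it had 9 reads, with at most 3 in any of them and 0 in 6 of them. Taking 3 reads per library as the floor, Pax3 was at least 8.71-fold, 12.1-fold and 9.69-fold higher in Cre- EDL than in Cre- SOL at 2.5, 5.5 and 8.5 days. It was called on each of these days (adjusted p = 0.00129, 0.000231 and 0.00281). Pax3 passed the filter on low counts only through its EDL libraries, where it is high. The calls and the share that follows thus restate these read counts and are no further support. It was 1 of the 2.64% of tested genes whose 12 EDL libraries all lay above all 12 SOL libraries. No fold is given for Pax3 between Cre+ and Cre- SOL, where all libraries were at or below the floor.

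The partners, regulators and targets of the members were followed in lists of known genes. Of 3 E proteins, the MRF partners Tcf3, Tcf4 and Tcf12, none was called in EDL on either day, and the most abundant, Tcf4, was at -0.27 (adjusted p = 0.215) and -0.42 (adjusted p = 0.0915). Of 15 inhibitors of MRF activity, 1 rose and 1 fell at 2.5 days and 1 fell at 8.5 days. Id4, a member of the Id family that sequesters E proteins, rose by 2.36 at 2.5 days (adjusted p = 0.00224) and was at 0.04 at 8.5 days (adjusted p = 0.968). Bhlhe41 (Sharp1), a repressor of the bHLH family, fell by 1.37 (adjusted p = 0.00135) and 1.22 (adjusted p = 0.00548). The most abundant of these inhibitors, Bhlhe40, was at -0.13 and 0.55 and was not called.

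Of 16 upstream and co-acting muscle factors, 1 rose and 7 fell at 2.5 days (median log2 change -0.45, against -0.05 for all genes, 10.2% of which were called lower) and 6 fell at 8.5 days (median -0.35, against -0.02, with 6.5% called lower). The homeobox factor Six4, which acts upstream of MRF genes, fell by 0.71 (adjusted p = 0.00825) and 0.95 (adjusted p = 0.00287), and Vgll2, a muscle cofactor of the TEAD factors, fell by 0.74 (adjusted p = 0.0189) and 0.91 (adjusted p = 0.0109). Tead4, a TEAD factor of myogenic differentiation, rose by 1.39 at 2.5 days (adjusted p = 0.00206). These counts depended on the scaling and on single libraries, as did the shares of all genes called. With library size alone, 2 rose and 1 fell at 2.5 days and 1 rose and 4 fell at 8.5 days. Without the second Cre+ or the first Cre- EDL library 1 of them fell at 2.5 days and without the second Cre- library 3 did, and at 8.5 days 2 fell without the first Cre+ library.

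Several targets of the MEF2 factors fell in Cre+ EDL. Of 13 MEF2 target genes, 8 fell and none rose at 2.5 days (median -0.91, against -0.05 for all genes, 10.2% of which were called lower), and 4 fell and 1 rose at 8.5 days (median -0.43, against -0.02, with 6.5% called lower). Slc2a4, the insulin-responsive glucose transporter, fell from a mean of 291 to 146 FPKM at 2.5 days and from 230 to 136 FPKM at 8.5 days (-1.32, adjusted p = 0.000289, and -0.93, adjusted p = 0.00472). Ckm, the muscle creatine kinase, fell by 1.02 (adjusted p = 0.00461) and 0.81 (adjusted p = 0.0262). Ppargc1a, the coactivator of mitochondrial genes, fell by 0.98 (adjusted p = 0.00232) and 1.07 (adjusted p = 0.00300). The orphan receptor gene Nr4a1 fell by 1.33 at 2.5 days (adjusted p = 0.00895) and was at -0.65 at 8.5 days (adjusted p = 0.199). Xirp1 was the target that rose at 8.5 days, by 1.07. With library size alone 1 rose and 7 fell at 2.5 days and 2 rose and 4 fell at 8.5 days. Without the second Cre+ EDL library 5 targets fell at 2.5 days, and at 8.5 days 1 fell without the first Cre+ library and 2 fell without the second Cre- library.

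**Figure D5:**
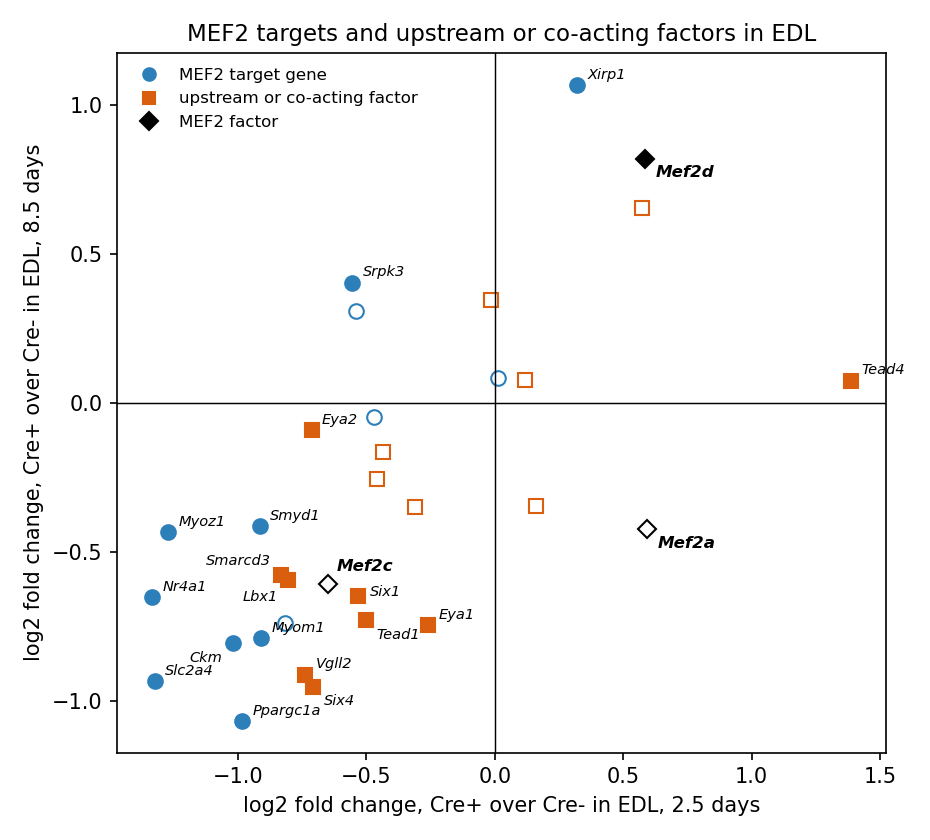
Log2 fold change of Cre+ over Cre- in EDL at 2.5 days (horizontal axis) and at 8.5 days (vertical axis) for the MEF2 target genes, the upstream and co-acting muscle factors and the 3 MEF2 members, with filled points for genes called on at least 1 day. The MEF2 targets Slc2a4 (-1.32 and -0.93), Ckm (-1.02 and -0.81) and Ppargc1a (-0.98 and -1.07) lie in the lower left.

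The regulators of MEF2 activity moved in both directions. Of 13 activators and co-activators, 1 rose and 3 fell at 2.5 days, and 1 rose and 1 fell at 8.5 days. Ppp3ca, a catalytic subunit of the phosphatase calcineurin, rose from a mean of 45.7 to 97.9 FPKM at 2.5 days and from 52.0 to 107 FPKM at 8.5 days (0.77, adjusted p = 0.000416, and 0.86, adjusted p = 0.000394). The acetyltransferase gene Ep300 fell by 0.59 (adjusted p = 0.0295) and 0.58 (adjusted p = 0.0476), and the kinase gene Camk2a fell by 0.92 at 2.5 days (adjusted p = 0.000846) and was at -0.40 at 8.5 days (adjusted p = 0.0911). Of 5 MEF2 repressors, Hdac7 fell by 0.80 at 2.5 days (adjusted p = 0.00277) and none was called at 8.5 days. The most abundant repressor, the class IIa deacetylase Hdac5, was at 0.30 and 0.36 and was not called. With library size alone, where 27.4% and 12.7% of all genes were called higher, 4 of the 5 repressors rose at 2.5 days and 2 at 8.5 days.

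Genes of denervated and of developing muscle moved in both directions. Of 10 denervation-responsive genes, 2 rose and 3 fell at 2.5 days and 1 rose and 1 fell at 8.5 days. The adhesion molecule gene Ncam1 rose by 3.44 (adjusted p = 1.73e-05) and 2.07 (adjusted p = 0.000668), whereas Chrnb1, a subunit of the acetylcholine receptor, fell by 1.80 (adjusted p = 3.85e-05) and 1.51 (adjusted p = 0.000186). The transcription factor gene Runx1 rose by 1.83 at 2.5 days (adjusted p = 0.000788) and was at 0.80 at 8.5 days (adjusted p = 0.0848), and the most abundant gene of this list, Gadd45a, was at -0.68 (adjusted p = 0.135) and -0.40 (adjusted p = 0.443). Of 10 genes of developing and regenerating muscle, none rose and 3 fell at 2.5 days and 2 fell at 8.5 days. The cardiac actin gene Actc1 fell from a mean of 193 to 42.2 FPKM and from 214 to 23.6 FPKM (-2.52, adjusted p = 0.00194, and -3.35, adjusted p = 0.000853), and Igf2 fell by 0.84 (adjusted p = 0.00480) and 0.77 (adjusted p = 0.0138). Myh7b, a slow-type myosin gene, fell by 0.78 at 2.5 days (adjusted p = 0.0349) and was at -0.49 at 8.5 days (adjusted p = 0.202). Of 8 fast fibre genes, 5 fell at 2.5 days and 2 fell at 8.5 days, among them the troponin genes Tnni2 (-1.23, adjusted p = 0.00169, and -0.89, adjusted p = 0.0189) and Tnnt3 (-0.94, adjusted p = 0.0196, and -0.86, adjusted p = 0.0455), and none of 7 slow fibre genes was called. The calcium buffer gene Pvalb fell by 1.71 at 2.5 days (adjusted p = 0.0211) and was at -1.16 at 8.5 days (adjusted p = 0.128). The most abundant fast and slow genes were the myosin light chains Mylpf, at -0.40 (adjusted p = 0.331) and 0.09 (adjusted p = 0.880), and Myl2, at -0.16 (adjusted p = 0.893) and -0.31 (adjusted p = 0.824). Among markers of other cells, 3 of 6 endothelial markers fell at 2.5 days and none was called at 8.5 days, with summed levels of 85.9 to 95.4 FPKM in Cre- and 75.9 to 78.4 FPKM in Cre+ at 2.5 days. They were Tie1 (-0.85, adjusted p = 0.00164), Cdh5 (-0.54, adjusted p = 0.0290) and Pecam1 (-0.52, adjusted p = 0.0335), which stood at -0.06, 0.00 and -0.19 at 8.5 days. Of 5 mural cell markers, Cspg4 rose by 1.21 (adjusted p = 0.000171) and 2.14 (adjusted p = 1.21e-05), and Notch3 fell by 0.66 at 2.5 days (adjusted p = 0.00153), while Rgs5, the most abundant, was at -0.47 (adjusted p = 0.0930) and -0.36 (adjusted p = 0.252). No fibroblast, macrophage, Schwann cell or tendon marker was called in EDL on these days. The most abundant of each were Col1a1 at -0.20 (adjusted p = 0.757) and 0.55 (adjusted p = 0.407), C1qa at -0.53 (adjusted p = 0.124) and 0.26 (adjusted p = 0.519), Pmp22 at 0.42 (adjusted p = 0.138) and 0.57 (adjusted p = 0.0742), and Thbs4 at -0.47 (adjusted p = 0.395) and 0.53 (adjusted p = 0.394). The part of other cell types in the values of the members was not tested. In SOL 1 mural marker was higher on each day and no other gene of the lists was called.

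Over the 24 libraries the level of each member was set beside that of 11330 other genes with a mean of at least 1 FPKM, as Pearson correlations of log2 CPM. These are descriptions over libraries that share muscle, genotype and depth. The 3 genes most like each member were taken. Pax3 was most like Itga4 (r = 0.97), Setd7 and Fam78a (r = 0.96). It had at most 3 reads in any SOL library, and the muscle means were not removed for these matches. By Spearman rank correlation its values were 0.91, 0.76 and 0.87. Those of Mef2c with Pygo1, Map3k20 and Ugp2 were 0.77, 0.69 and 0.90. Mef2a was most like Tmed7, Abce1 (r = 0.95) and Mfap3l (r = 0.93), Mef2c most like Pygo1 (r = 0.90), Map3k20 and Ugp2 (r = 0.89), and Mef2d most like Ninj1 (r = 0.92), Vars and Tbc1d10b (r = 0.91). Myod1 was most like Eif4g3 (r = 0.94), Kcnc4 and Myom2 (r = 0.92), and Myog most like Rasl11b (r = 0.91), Smtn (r = 0.90) and Col23a1 (r = 0.88). Pax7 was most like Impa2, Mprip (r = 0.90) and Wasf2 (r = 0.89), and Myf5 most like Arpp21, Mtss1 and 4921531C22Rik (r = 0.90). Myf6 had no such close match, and its nearest genes were Bbs5, Neat1 (r = 0.68) and Lifr (r = 0.66). Between members, Mef2c and Mef2d had r = -0.59, and r = -0.60 once the mean of each muscle was removed. Myog and Mef2a had r = -0.82 and -0.53 in the same way, and Pax7 and Myf5 had r = 0.73 and 0.49. Pax3 and Myod1 had r = 0.82 over all libraries and 0.23 with the muscle means removed, so their likeness lay mostly between the muscles.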

How the data were processed

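Polyadenylated RNA of whole EDL and SOL muscles was sequenced as stranded single-end libraries. The authors checked read quality with FastQC 0.11.2, used STAR 2.5.3a for alignment against mm10 and counted uniquely aligned reads over RefSeq exons with HOMER, and they deposited these raw counts per gene. Whether the counting used strand was not given in the sources used here, so reads of overlapping genes on opposite strands may not be separated.

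From the counts, edgeR 4.0.16 (R 4.3.3) was run with TMM scaling, filterByExpr (minimum count 10), 1 mean per group and the quasi-likelihood test. The 16 libraries of 2.5 and 8.5 days (15372 genes) gave the main comparisons and all 24 libraries (15478 genes) gave those of 5.5 days. Standard errors were the log2 change over the root of F. DESeq2 1.42.0 was an alternative. The scripts were tested on simulated data. FPKM used the exon length in the table and the total count. These totals of 36088781 to 54679082 reads put a floor of 3 counts at 0.0549 to 0.0831 CPM, which covers counting error only.

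Groups came from the labels. The list counts under library size alone and without single libraries, and the overlap of groups on TMM-scaled levels (FPKM over the TMM factor of all 24 libraries), were chosen after seeing the data. Same-numbered EDL and SOL libraries deviated together in all 6 pairs (r = 0.17 to 0.44), so the number was taken to mark the mouse, as a hint from the data since the labels do not state it. Same-numbered Cre+ and Cre- libraries did not (r = -0.17 to 0.06). The study calls the libraries of a group biologically independent samples. All 9 members were counted in every comparison. From each list the text names the most abundant gene and up to 3 called genes with the largest mean change over both EDL comparisons. Tead4 was among these, whereas Xirp1 was named after its values were seen. The members and the lists were chosen with earlier results of these data known. Gene overlaps were read from GENCODE vM21 and promoters from RefSeq.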

Additional observations from a re-analysis of the deposited data

How the results depend on the processing

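Mef2d in EDL was called higher under each alternative other than a fold threshold of 1 and leaving out a library, with log2 changes of 0.58 to 0.92 at 2.5 days and 0.80 to 1.00 at 8.5 days. With a threshold of 1, 0 members were called in EDL at 2.5 days and 0 at 8.5 days. Between EDL and SOL 3 were called at 8.5 days and 2 at 5.5 days, with Pax3 counted on both days. With library size alone as the scaling, 3 members were called in EDL at 2.5 days (Pax7, Mef2a and Mef2d) and 2 at 8.5 days (Pax7 and Mef2d), where 31.3% and 16.3% of all genes were called. Between EDL and SOL that scaling lost the calls of Mef2a at 8.5 days and Myf6 at 5.5 days. DESeq2 on the 16 libraries called 3 in EDL at 2.5 days, while DESeq2 on the 4 libraries of that comparison called 1 (Mef2d). The former called 1 each for the EDL change minus the SOL change at 2.5 days (Myf6) and 8.5 days (Mef2d). All 24 libraries in 1 fit called 3 in EDL at 2.5 days and 1 (Myf6) for the difference between the muscles. No share of all genes called stands beside the counts of the DESeq2 fits and of the fit of all 24 libraries, so these counts have no background. The cause of these shifts was not tested. A filter of at least 10 counts in every library left Pax3 out.

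A replicate block for the assumed mouse, which the labels do not state, was also fitted. With it 1 member (Myf6) was called for the difference between the muscles at 2.5 days. Myog was added between EDL and SOL at 5.5 days, and no other call changed. With a replicate block for the number between Cre+ and Cre-, which share only a number, the counts of members called did not change, with Mef2d at 0.58 (adjusted p = 0.0286) and 0.82 (adjusted p = 0.0140).

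Leaving out 1 library moved the counts of members called to 0 to 6 in EDL at 2.5 days and 1 to 2 at 8.5 days, to 1 to 3, 1 to 3 and 2 to 4 between EDL and SOL at 2.5, 5.5 and 8.5 days, to 0 to 1 for the difference between the muscles at 2.5 days (Myf6), and to 0 to 1 for the difference between the days in EDL (Mef2a). With these fits the lone library of a group was assumed to vary like the other groups. None of the values that changed sign was called in the fit of all libraries, and they ranged as follows. In EDL at 2.5 days the range was Myod1 -1.55 to 0.19. In the difference between the muscles at 2.5 days the ranges were Pax7 -0.19 to 0.28, Myod1 -1.002 to 0.74, Myf5 -0.50 to 0.079 and Mef2a -0.0014 to 0.82. Between the days in EDL the ranges were Pax3 -0.89 to 0.50, Myod1 -0.18 to 1.56 and Mef2c -0.31 to 0.51. In SOL at 2.5 days the ranges were Myog -0.10 to 0.34 and Mef2a -0.052 to 0.29. Between the days in SOL the ranges were Pax7 -0.36 to 0.042, Myf5 -0.0096 to 0.42, Myf6 -0.21 to 0.047, Mef2a -0.30 to 0.037, Mef2c -0.035 to 0.077 and Mef2d -0.069 to 0.16. In EDL at 8.5 days the ranges were Myod1 -0.33 to 0.32, Myog -0.58 to 0.72 and Myf5 -0.32 to 0.14. In the difference between the muscles at 8.5 days the ranges were Myod1 -0.78 to 0.32, Myog -0.92 to 0.37 and Myf5 -0.23 to 0.23. Between EDL and SOL at 8.5 days the range was Mef2c -0.018 to 0.81. In SOL at 8.5 days the ranges were Pax7 -0.041 to 0.16, Myod1 -0.32 to 0.79, Myf5 -0.22 to 0.045, Mef2a -0.036 to 0.0063 and Mef2c -0.097 to 0.016. In EDL at 5.5 days the ranges were Myf6 -0.052 to 0.01975 and Mef2a -0.19 to 0.014. In SOL at 5.5 days the ranges were Myod1 -0.12 to 0.0089 and Mef2c -0.12 to 0.22.

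Changes of sign under other settings concerned values that were not called in either fit. With library size alone they were 0.0892 for Mef2c in SOL at 2.5 days, 0.1003 for Myf5 in EDL and 0.0181 for Mef2a in SOL at 8.5 days, 0.0284 for Myod1 and 0.0232 for Myog in the difference between the muscles at 8.5 days, -0.102 for Mef2c in EDL and -0.0942 for Mef2c and -0.0696 for Mef2d in SOL between the days, -0.0207 for Myf6 between EDL and SOL at 8.5 days, and 0.128 for Myf6 and 0.0584 for Mef2a in EDL and 0.00705 for Myod1 in SOL at 5.5 days. Myf6 in EDL at 5.5 days was at 0.00015 without the filter, 0.0016 with the strict filter, 0.0109 with the 4 libraries alone, 0.0087 with DESeq2 on them and 0.0080 with the libraries of 1 muscle. In the difference between the muscles the mouse block gave -0.15 for Myod1 at 2.5 days and -9.1e-05 for Myf5 at 8.5 days. All 24 libraries gave -7.3e-05 for the latter, and -0.0086 for Myod1 in EDL at 8.5 days.

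With 2 libraries a group, an exact permutation test of 1 gene cannot go below p = 0.333, so the tests borrow the spread across groups and genes. Pax3, Pax7 and Myf5 rest on few reads. Mef2b was too low to follow.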
